A study of Mus musculus with 25 samples.

Results

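The Obox genes are a family of homeobox genes that lie together on mouse chromosome 7. The 8 members described here were taken by name from the 55375 genes of the deposited count table. They were the zygotic genes Obox3, Obox6 and Obox8, the maternally stored genes Obox1, Obox2, Obox5 and Obox7, and the pseudogene Obox3-ps4. The split into zygotic and maternally stored members was given with the list and was not measured in these libraries. A further 47 loci carry an Obox name, 39 of them Obox4 loci or pseudogenes.

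Obox genes encode homeodomain proteins that are confined to oocytes and early embryos. The maternally stored members are transcribed during oocyte growth and their RNA is passed to the embryo, whereas the zygotic members are switched on when the embryonic genome is activated at the 2-cell stage. OBOX proteins act redundantly as activators of that genome and of the MERVL retrotransposon. In embryos made by somatic cell nuclear transfer (SCNT), methylation of lysine 9 of histone H3 that the donor nucleus brings along is a known barrier to this activation.

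The 25 RNA-seq libraries were made from polyadenylated RNA of 5 to 10 pooled wild-type 2-cell embryos each, collected 28 to 29 h after insemination or activation. The 4 libraries of in vitro fertilised (IVF) embryos came from oocytes of superovulated C57BL/6N females and DBA2 sperm. The SCNT embryos had both their oocytes and their cumulus cell nuclei from BDF1 (C57BL/6N x DBA2) females, so that embryo type cannot be told apart from the strain of the oocyte. The labels give the females of all groups as 4 to 20 weeks old, and the study's methods give a narrower range for the IVF mice. Of the SCNT embryos cultured in cytochalasin B, 2 libraries were untreated (control SCNT), 2 had been injected with 10 pL of 1500 ng/uL mRNA for the demethylase Kdm3a, and 2 with the same amount for Kdm4d. The other SCNT embryos had latrunculin A in place of cytochalasin B (LatA-SCNT). They were untreated (2 libraries) or treated with the histone deacetylase inhibitor trichostatin A (TSA) at 25 nM for 8 h (2 libraries), with an inhibitor of the H3K9 methyltransferase G9a at 1 uM for 24 h, or with both. The inhibitor alone was RK-701 (R701 in the labels, 3 libraries) or A366 (2 libraries), and with TSA it was RK-701, A366 or UNC0638 (2 libraries each).

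Total counts over genes ran from 6662727 to 21188688 per library. Kdm3a stood at 3116 and 3465 normalised CPM (counts scaled to library size) in the SCNT-Kdm3a libraries against at most 267 in the other 23, and Kdm4d at 12540 and 18540 CPM in the SCNT-Kdm4d libraries against at most 5.08. MERVL-int, the internal part of a retrotransposon active in 2-cell embryos, stood at 7789 to 8378 CPM in IVF libraries. Of 12 markers of cumulus cells, Inha, Amh, Fshr, Ptx3 and Foxl2 had a median of 0 reads, Amhr2, Tnfaip6, Star and Cyp19a1 had medians of 453, 54, 22 and 20 reads, and the summed level of the list ran from 31.7 to 73.5 CPM over all libraries. All 8 members passed the filter on low counts and were tested among 25794 autosomal genes. A member was called higher or lower at an adjusted p under 0.05 (edgeR, Benjamini-Hochberg) and a fold above 2.

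Stretches at or near the RefSeq starts of the genes are shown first. The maternally stored members and zygotic Obox3 share sequence there, although their RNA levels followed different patterns. The stretch of Obox2 runs 30 bases past the RefSeq start, that of Obox7 runs 16 and that of Obox1 runs 2. The reference tables (RefSeq, GRCm38.p6) held promoters, from 250 bases before to 50 bases after the RefSeq start of the gene, for 5 of the 8 members. The count table has other starts, 15388721 for Obox2, 15750131 for Obox5 and 14659496 for Obox7, and an Obox1 span of 15388948 to 15556866. The stretches of these 4 genes thus lie inside the spans of the counted genes. That of Obox3, which starts at 15639902 on the minus strand in the count table, does so except for its first bases. Obox6, Obox8 and Obox3-ps4 are not shown. Each stretch is written 5′ to 3′ on the strand of its gene, and capitals mark a 25-base run present in all 5 promoters and, further on, the letters TATATAA.
Obox3 (chr7:15639787-15639906, minus strand): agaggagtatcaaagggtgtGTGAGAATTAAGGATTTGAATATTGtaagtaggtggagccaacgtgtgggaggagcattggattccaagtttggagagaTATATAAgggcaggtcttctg
Obox1 (chr7:15547139-15547258, plus strand): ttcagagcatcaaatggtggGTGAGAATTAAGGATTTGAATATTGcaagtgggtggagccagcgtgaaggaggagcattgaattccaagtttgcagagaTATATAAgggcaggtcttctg
Obox5 (chr7:15750240-15750359, plus strand): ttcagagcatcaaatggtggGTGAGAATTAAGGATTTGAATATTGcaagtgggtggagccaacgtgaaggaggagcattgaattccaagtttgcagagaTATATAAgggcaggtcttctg
Obox7 (chr7:14659604-14659723, plus strand): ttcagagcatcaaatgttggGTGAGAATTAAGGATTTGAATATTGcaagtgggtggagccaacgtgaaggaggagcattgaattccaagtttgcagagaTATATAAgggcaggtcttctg
Obox2 (chr7:15388830-15388880, plus strand): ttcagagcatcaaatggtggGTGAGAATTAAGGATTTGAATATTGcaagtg

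The 25-base run was chosen as the longest one that these 5 promoters share, so its presence in all 5 was fixed by the choice. Obox6, Obox8 and Obox3-ps4 had no promoter to search. The run was in no other of the 32851 promoters searched on both strands (0.0152% with it). It ended 59 to 85 bases before the RefSeq start in Obox1, Obox3, Obox5 and Obox7, and in Obox2 the RefSeq start fell at the beginning of the run. The 50 bases before the run were compared position by position without gaps, so that an inserted or missing base lowers the count. Obox3 matched the 4 maternally stored members at 19 or 20 positions, whereas those 4 matched each other at 46 to 50 positions. TATATAA was in the promoters of Obox1, Obox3, Obox5 and Obox7 and in 3.24% of all. In Obox2 the window ended before the place at which TATATAA follows the run in those 4 genes. Its presence in Obox2 could therefore not be assessed. GGATTA, the core that OTX-type homeodomains recognise, was in the promoter of Obox3 and in 7.06% of all. These matches describe letters in a fixed window and no binding was measured.

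The members are spread over 1508 kb of chromosome 7 in mm10, from Obox8 (14331436 to 14333557, minus strand) to Obox6 (15833241 to 15839678, minus strand). Obox7, Obox3-ps4, Obox2, Obox1, Obox3 and Obox5 lie between them in that order of their start positions. Obox1 and Obox3 are annotated with long spans of 167.9 and 160.1 kb that enclose 5 and 3 other Obox loci. Obox1 and Obox2 share 59 exonic bases, and 40.9% and 42.5% of the 100-base windows of their longest transcripts were identical between the pair. For Obox3-ps4 the share of windows identical to another Obox locus was 41.2%, for Obox3 12.0%, for Obox7 2.69% and for Obox5 0.115%, while Obox6 and Obox8 had none. Since the authors counted uniquely aligned reads, the values of Obox1, Obox2, Obox3-ps4 and, to a lesser degree, Obox3 rest on the remaining sequence and are uncertain between near copies.

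Per length, zygotic Obox6 and Obox8 were the most abundant of the 8 members in IVF embryos. The mean level of the zygotic members per exon length and library (TPM) over the 4 IVF libraries was 2356 for Obox6, 1058 for Obox8 and 346 for Obox3. Of the maternally stored members, Obox5 stood at 574 TPM, Obox1 at 212, Obox2 at 180 and Obox7 at 59.1, and the pseudogene Obox3-ps4 at 136. Obox5 thus lay above zygotic Obox3 on this scale. Because each library pooled several whole embryos, a lower level in all embryos and a loss in some of them cannot be told apart.

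The first question was how the family stood in untreated SCNT embryos. The zygotic members were far below IVF, and Obox3 was the most reduced of the 8. In normalised CPM, Obox3 had 351, 307, 363 and 300.1 in the 4 IVF libraries. It had 47.3 and 33.7 in control SCNT and 47.7 and 30.4 in LatA-SCNT controls. Every SCNT control library was thus below every IVF library. Obox3 was 8.16-fold lower in control SCNT (log2 change -3.03 ± 0.27 SE, adjusted p = 8.97e-09) and 8.43-fold lower in LatA-SCNT controls (-3.08 ± 0.27, adjusted p = 9.3e-09).

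Obox8 followed with smaller differences. It had 483, 415, 505 and 418 CPM in IVF, 95.2 and 122 in control SCNT and 85.3 and 65.7 in LatA-SCNT controls. The groups did not overlap, and the folds were 4.20 lower (log2 change -2.07 ± 0.25, adjusted p = 1.17e-06) and 6.02 lower (-2.59 ± 0.26, adjusted p = 6.33e-08). Obox6, the most abundant member, was the least reduced of the zygotic genes. It had 1264, 1089, 1255 and 1057 CPM in IVF, 402 and 622 in control SCNT and 577 and 347 in LatA-SCNT controls. Both controls lay below IVF in every library, and the libraries of each control differed by more than the means of the controls did. Against IVF, Obox6 was 2.28-fold lower in control SCNT (adjusted p = 0.000334) and 2.52-fold lower in LatA-SCNT controls (adjusted p = 9.69e-05).

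Obox3-ps4, an unprocessed copy of Obox3 that is annotated as a pseudogene, moved with the zygotic members. Its level was 65.7, 41.0, 47.1 and 47.6 CPM in IVF, 11.6 and 15.6 in control SCNT and 13.6 and 7.91 in LatA-SCNT controls. This was 3.68-fold lower (adjusted p = 0.000125) and 4.63-fold lower (adjusted p = 2.13e-05) than IVF.

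**Figure D1:**
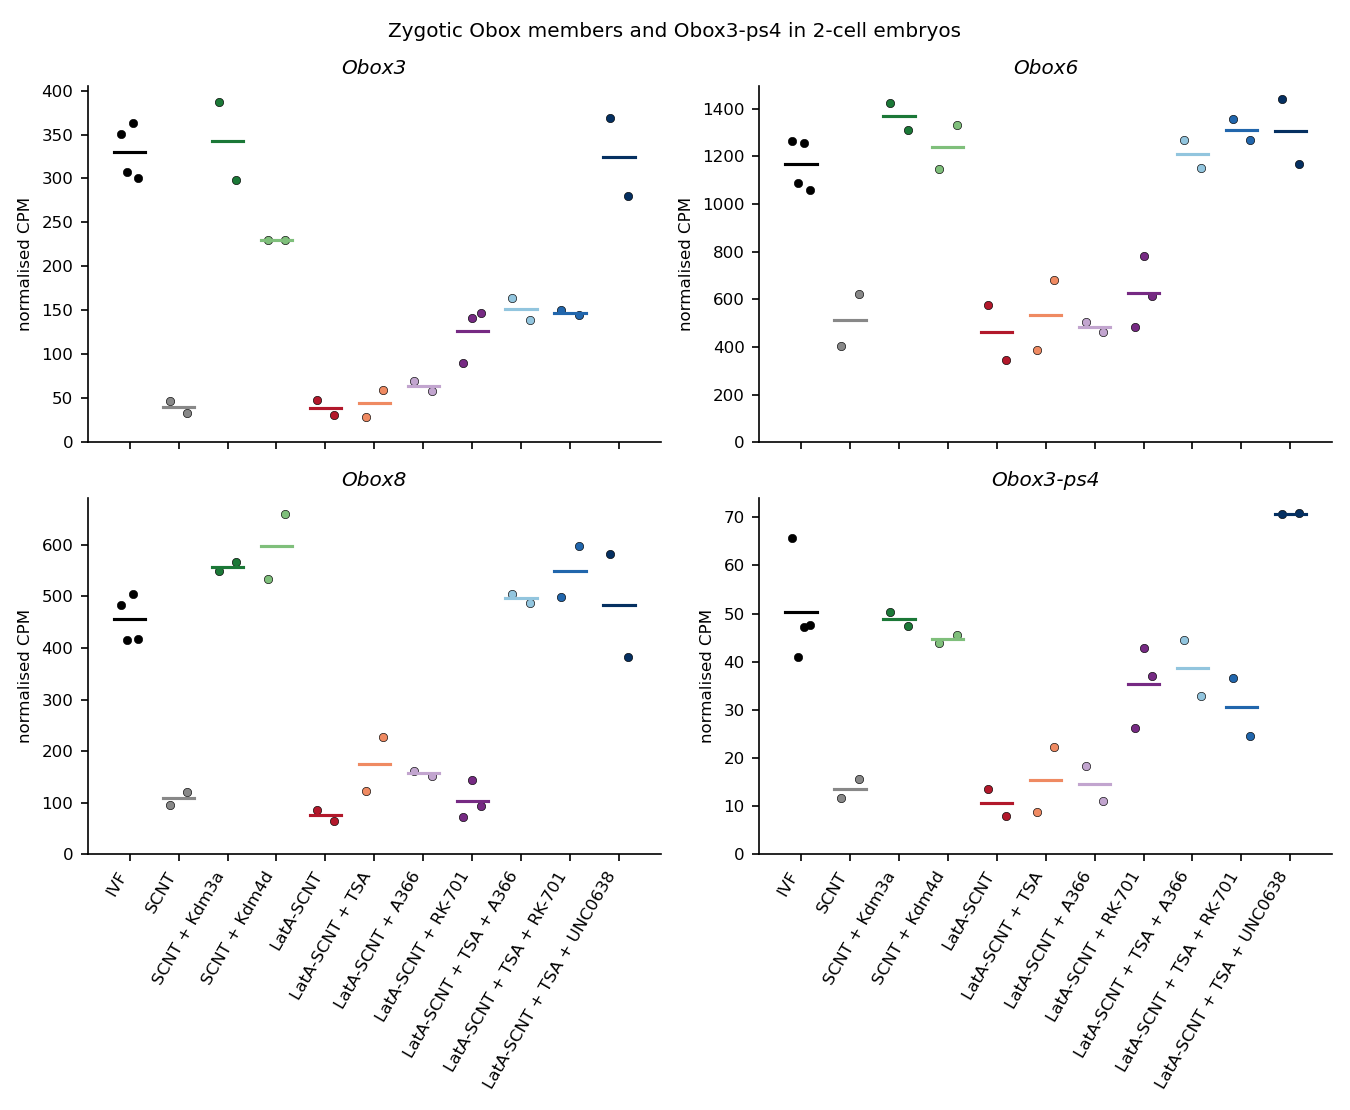
Normalised CPM (y axis, from 0) of Obox3, Obox6, Obox8 and Obox3-ps4 in each of the 25 libraries, by group (x axis). Points are libraries and bars are group means. Obox3 was between 300.1 and 363 CPM in IVF libraries and between 30.4 and 47.7 in the 4 untreated SCNT libraries, and it stayed at or below 164 in the TSA co-treatments with A366 and RK-701, in which Obox6 and Obox8 reached the IVF range.

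The maternally stored members were also below IVF in untreated SCNT embryos, with the exception of Obox7. Obox5, the most abundant of them, had 373, 428, 468 and 538 CPM in IVF, 161 and 204 in control SCNT and 178 and 131 in LatA-SCNT controls. It was 2.48-fold lower in the former (log2 change -1.31 ± 0.20, adjusted p = 1.97e-05) and 2.93-fold lower in the latter (-1.55 ± 0.20, adjusted p = 2.43e-06). Obox1 had 122, 140, 166 and 166 CPM in IVF, 59.4 and 79.6 in control SCNT and 82.4 and 43.8 in LatA-SCNT controls, with no overlap between IVF and either control. Its folds were 2.14 lower (adjusted p = 0.00114) and 2.35 lower (adjusted p = 0.000359). Obox2, with 99.6 to 124 CPM in IVF, had 60.04 and 61.0 in control SCNT, where the difference passed the adjusted p but stayed under a fold of 2 (1.80-fold lower, adjusted p = 0.00289). In LatA-SCNT controls it had 49.95 and 35.7 CPM and was 2.54-fold lower (adjusted p = 2.67e-05).

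Obox7, the least abundant member, was the exception in both controls. It had 25.3, 34.1, 38.3 and 41.9 CPM in IVF and 25.8 to 35.5 in the 4 control SCNT and LatA-SCNT libraries, so that the groups overlapped. The log2 difference was -0.20 in both controls, with a 95% interval from -0.72 to 0.33 in each.

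Altogether 6 of the 8 members were lower in control SCNT than in IVF, against 6.82% of all genes tested called lower, and 7 of 8 were lower in LatA-SCNT controls, against 6.48%. The median log2 change of the members was -1.25 and -1.45, beside 0.01 and 0.04 over all genes. Both comparisons share the IVF libraries. Without control SCNT replicate 1, Obox1 (log2 change -0.91, adjusted p = 0.0551) and Obox6 (-0.91, adjusted p = 0.0374) were no longer called, and without LatA-SCNT control replicate 2, Obox1 was not (-0.85, adjusted p = 0.0284). No member was called between the 2 kinds of control, where 0.0116% of all genes were called in either direction; 1 member, Obox2, had an unadjusted p under 0.05 and DESeq2 called none.

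A list of 15 other oocyte-stored genes (among them Btg4, Oosp1, Nlrp5 and Zp3) was below IVF in the same libraries as the maternally stored Obox members. Of the list, 8 genes were lower (6.82% of all genes) and 0 higher in control SCNT. In LatA-SCNT controls 7 were lower (6.48% of all genes) and 0 higher. The median log2 change of the list was -1.15 and -0.92. Btg4, which recruits a deadenylase to maternal RNA, was lower by log2 -1.63 and -1.31, and Nlrp5, a component of the subcortical maternal complex, by -1.24 and -1.0. The summed level of the list was 3130 to 3652 CPM in IVF and 1293 to 1596 in the 4 untreated SCNT libraries. The part that the oocyte strain has in either was not tested.

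Injection of either demethylase mRNA was the next comparison. It was accompanied by higher levels of the 3 zygotic members and the pseudogene, and no maternally stored member was called. In SCNT-Kdm3a, Obox3 had 387 and 298 CPM, Obox6 had 1422 and 1312, and Obox8 had 548 and 566. All of these lay above both control SCNT libraries and, for Obox6 and Obox8, above all 4 IVF libraries. In SCNT-Kdm4d, Obox3 had 230.3 and 230.1 CPM, Obox6 had 1148 and 1332, and Obox8 had 533 and 660.1.

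Obox3 was 8.47-fold higher than control SCNT after Kdm3a (log2 change 3.08 ± 0.29, adjusted p = 6.18e-07) and 5.69-fold higher after Kdm4d (2.51 ± 0.28, adjusted p = 1.17e-05). Obox8 was 5.14-fold (adjusted p = 9.61e-06) and 5.50-fold higher (adjusted p = 1.17e-05), and Obox6 was 2.67-fold (adjusted p = 0.000965) and 2.42-fold higher (adjusted p = 0.00358). Obox3-ps4 was 3.57-fold (adjusted p = 0.00225) and 3.28-fold higher (adjusted p = 0.00532). These were 4 of 8 members in each comparison, against 2.38% and 2.11% of all genes called higher. Without control SCNT replicate 1, Obox6 (log2 1.11 after Kdm3a, adjusted p = 0.0747, and 0.98 after Kdm4d, adjusted p = 0.161) and Obox3-ps4 (1.62, adjusted p = 0.0816, and 1.5, adjusted p = 0.143) were not called, and without SCNT-Kdm4d replicate 2 neither was Obox6 after Kdm4d (1.17, adjusted p = 0.052).

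No maternally stored member was called against control SCNT after either injection. Obox1 had 74.4 and 63.6 CPM after Kdm3a and 59.7 and 62.0 after Kdm4d, and Obox2 had 59.2 and 41.3, and 52.1 and 43.8. Their log2 changes against control SCNT lay between -0.34 and -0.01, and that of Obox1 after Kdm3a had a 95% interval from -0.54 to 0.52. Obox5 had 199 and 176 CPM after Kdm3a (log2 change 0.04, 95% interval -0.40 to 0.48) and 264 and 258 after Kdm4d, with a log2 change of 0.51 that was not called (adjusted p = 0.181). Obox7 had 43.7 and 24.3 CPM after Kdm3a, overlapping control SCNT, and 22.3 and 21.9 after Kdm4d, below both control libraries (35.5 and 25.8) at a log2 change of -0.47 (95% interval -1.08 to 0.14, adjusted p = 0.409).

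Set against IVF, the injected embryos had zygotic members at or near the IVF level and the maternally stored members Obox1, Obox2 and Obox5 below it. No zygotic member was called, and for Obox3 the log2 difference from IVF was 0.05 after Kdm3a (95% interval -0.42 to 0.53) and -0.52 after Kdm4d (-1.01 to -0.04, adjusted p = 0.15). Obox1, Obox2 and Obox5 were 2.16-, 2.17- and 2.41-fold lower than IVF after Kdm3a (adjusted p = 0.0012, 0.000243 and 3.16e-05), which is 3 members against 6.21% of all genes called lower. After Kdm4d, Obox1 and Obox2 were 2.45- and 2.27-fold lower (adjusted p = 0.000381 and 0.000189), 2 members against 4.46%. Obox7 was not called in either: it overlapped IVF after Kdm3a (log2 difference -0.04, 95% interval -0.56 to 0.48), and after Kdm4d it lay below all IVF libraries (-0.67, 95% interval -1.20 to -0.13, adjusted p = 0.0934). Without SCNT-Kdm3a replicate 2, Obox1 and Obox2 were not called after Kdm3a (log2 change -1.0, adjusted p = 0.0368, which fell just short of a fold of 2, and -0.88, adjusted p = 0.0243).

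The injections were also compared with each other. No member was called between SCNT-Kdm4d and SCNT-Kdm3a (edgeR; 0.326% of all genes called in either direction; DESeq2 also called none), although Obox3, Obox5 and Obox7 had an unadjusted p under 0.05. Obox3 was lower after Kdm4d in both libraries, by log2 -0.57 (95% interval -1.12 to -0.02, adjusted p = 0.475).

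**Figure D2:**
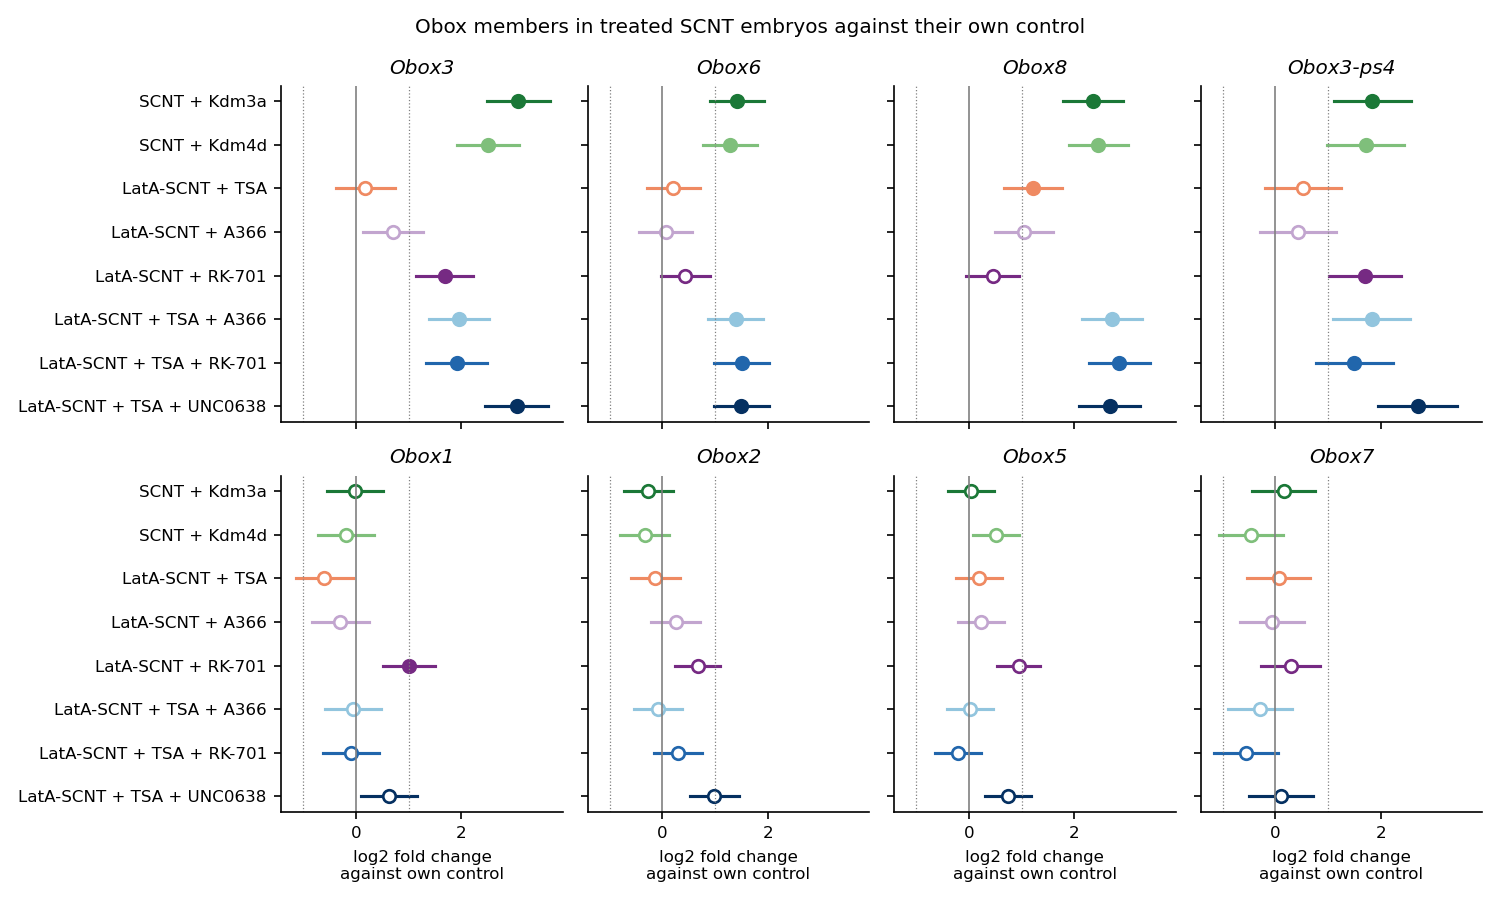
Log2 fold change (x axis, with 95% interval) of each member in 8 treated SCNT groups against the untreated control of the same kind, control SCNT for the injections and LatA-SCNT for the inhibitors. Filled circles mark calls at an adjusted p under 0.05 and a fold above 2, and dotted lines mark a log2 change of 1. Obox3, Obox6, Obox8 and Obox3-ps4 are filled after Kdm3a, Kdm4d and the 3 co-treatments, and Obox1 after RK-701 alone is the one filled circle among the maternally stored members.

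In LatA-SCNT embryos, few members were called after TSA or a G9a inhibitor alone. After TSA, Obox8 had 123 and 227 CPM against 85.3 and 65.7 in the control and was called 2.32-fold higher (log2 change 1.21 ± 0.27, adjusted p = 0.0385), 1 member against 0.159% of all genes. The call was lost without LatA-SCNT control replicate 1 (1.41, adjusted p = 0.0969), control replicate 2 (1.04, adjusted p = 0.0679) or TSA replicate 2 (0.70, adjusted p = 0.309), and against control SCNT (0.69, adjusted p = 0.167). Obox3 had 29.1 and 59.6 CPM and Obox6 had 389 and 679, both overlapping the control. The TSA libraries also had the highest summed level of cumulus cell markers, 59.3 and 73.5 CPM against 31.7 and 41.1 in the LatA-SCNT controls. Most of this was Amhr2, with a mean of 56.4 CPM against 27.7. Cyp19a1 had 2.28 against 0.791, Star 2.12 against 1.82 and Tnfaip6 3.99 against 4.36. Of 8 tested markers, 1 was called higher and 0 lower, with a median log2 change of 0.05. Of the 12 markers, Amhr2, Tnfaip6, Star and Cyp19a1 had reads in all 25 libraries. Inha, Amh, Fshr, Ptx3 and Foxl2 had at most 11 reads in any library, and Inhba, Has2 and Cyp11a1 at most 28. Whether the higher sum has a part in the Obox8 difference was not tested.

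After A366 alone, no member was called, against 0.120% of all genes in either direction. Obox8, at 161 and 152 CPM, and Obox3, at 69.2 and 58.4 CPM, lay above both control libraries with an unadjusted p under 0.05. Obox8 was 2.07-fold higher (adjusted p = 0.0971), and DESeq2 called this 1 member (log2 change 1.02, adjusted p = 0.0202). Obox6 had 503 and 463 CPM, within the range of the control.

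After RK-701 alone, Obox3, the pseudogene and 1 maternally stored member were higher than the control. Obox3 had 90.4, 141 and 147 CPM, all above both control libraries, and was 3.21-fold higher (log2 change 1.68 ± 0.26, adjusted p = 0.000426). Obox3-ps4 had 26.2, 42.9 and 37.0 CPM and was 3.25-fold higher (adjusted p = 0.00321). Obox1 had 134, 104 and 144 CPM and was 2.01-fold higher (log2 change 1.01 ± 0.24, adjusted p = 0.0137). These were 3 members against 1.73% of all genes called higher.

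Obox5, at 330.2, 232 and 330.3 CPM, was 1.93-fold higher and passed the adjusted p (0.00574) but not the fold, and it was called without LatA-SCNT control replicate 1 (log2 1.18, adjusted p = 0.00216) or RK-701 replicate 2 (1.10, adjusted p = 0.00296). Obox2, at 66.3, 63.2 and 74.8 CPM, was 1.59-fold higher (adjusted p = 0.0592). Obox6, at 483, 782 and 613 CPM, and Obox8, at 73.4, 144 and 93.0 CPM, overlapped the control. For Obox8 the log2 difference was 0.45, with a 95% interval from -0.05 to 0.95.

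The Obox1 call lay at the threshold of the fold. It was not made without RK-701 replicate 1 (0.97, adjusted p = 0.041), RK-701 replicate 3 (0.91, adjusted p = 0.0616) or LatA-SCNT control replicate 2 (0.63, adjusted p = 0.305), nor by DESeq2 (0.99, adjusted p = 0.00149). Obox3-ps4 was not called without LatA-SCNT control replicate 2 either (1.38, adjusted p = 0.109).

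Against IVF, the RK-701 libraries were the only SCNT libraries without an added deacetylase inhibitor or mRNA in which no maternally stored member was called lower. Obox8 was 4.40-fold lower (adjusted p = 5.36e-08) and Obox3 2.62-fold lower (adjusted p = 2.3e-05), 2 members against 5.15% of all genes. Obox1 overlapped IVF (log2 difference -0.22, 95% interval -0.63 to 0.18). Obox5 and Obox2 passed the adjusted p at folds of 1.52 and 1.6 lower, as did Obox6 at 1.86, which was called without RK-701 replicate 2 (log2 change -1.09, adjusted p = 0.000807). In contrast, 7 of 8 members, all but Obox7, were lower than IVF after TSA alone and after A366 alone, against 7.12% and 7.14% of all genes. Obox6 after TSA was not called without TSA replicate 1 (log2 change -0.78, adjusted p = 0.0589).

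As a list, the other oocyte-stored genes stood closer to IVF in the RK-701 libraries (median log2 change -0.21) than in LatA-SCNT controls (-0.92). Their summed level was 2502 to 3592 CPM, above the 1270 to 1523 CPM of A366 and the 1293 to 1596 CPM of the untreated controls. Most of this sum was Btg4 and Oosp1, with means of 1790 and 591 CPM. Called lower than IVF was 1 of 15, Zar1 (log2 change -1.41). Zp3, at 51.6 to 69.1 CPM, also lay below the 100.7 to 112.1 CPM of IVF. Btg4 (log2 change 1.26) and Oosp1 (1.38), a secreted protein of the oocyte, were called higher than in LatA-SCNT controls. Whether the higher Obox1 belongs with this difference in stored RNA was not tested.

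**Figure D3:**
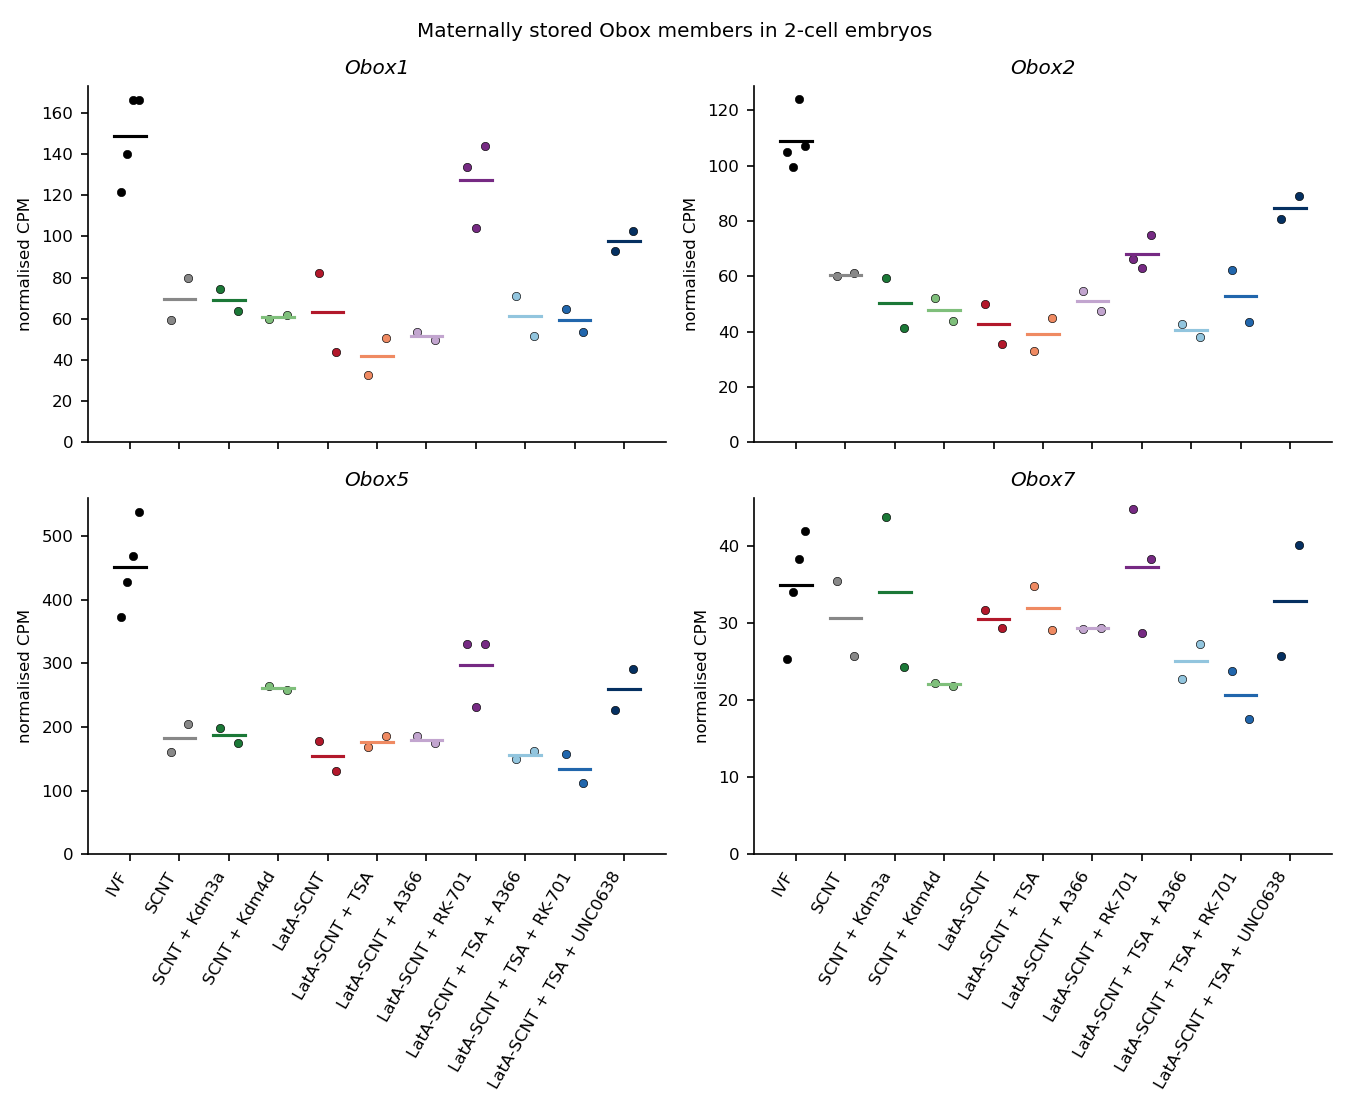
Normalised CPM (y axis, from 0) of the maternally stored members Obox1, Obox2, Obox5 and Obox7 in each of the 25 libraries, by group (x axis). Points are libraries and bars are group means. IVF has the highest mean for Obox1, Obox2 and Obox5, RK-701 alone has 104 to 144 CPM of Obox1 against 122 to 166 in IVF, and Obox7 lies between 17.5 and 44.8 CPM in every library.

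**Figure D4:**
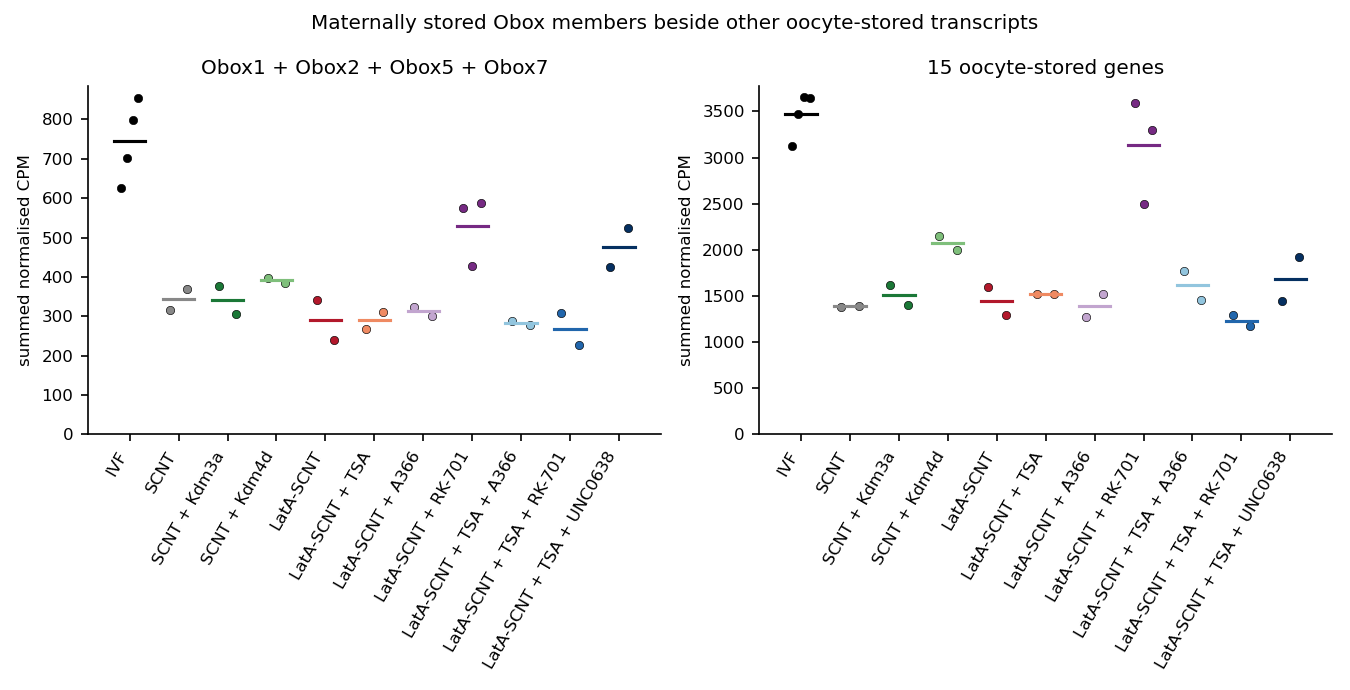
Summed normalised CPM (y axes, from 0) of Obox1, Obox2, Obox5 and Obox7 (left) and of 15 other oocyte-stored genes (right) in each library, by group (x axes). Points are libraries and bars are group means. IVF libraries lie at 625 to 853 CPM on the left and 3130 to 3652 on the right, and RK-701 alone at 428 to 587 and 2502 to 3592.

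The G9a inhibitors were given at the same concentration and for the same time, and their groups were compared directly. The study lists different potencies against G9a for them, so an equal concentration need not mean equal inhibition. UNC0638 had no libraries without TSA, so its effect alone cannot be separated from that of the combination. Of single treatments, A366 was lower than RK-701 in Obox1 (2.47-fold, log2 change -1.30 ± 0.25, adjusted p = 0.000668) and Obox3-ps4 (2.41-fold, adjusted p = 0.00946), 2 members against 4.10% of all genes called lower. Obox3 was 1.97-fold lower with A366 and passed the adjusted p (0.00939) but not the fold, while it was called by DESeq2 (adjusted p = 0.00131), without A366 replicate 1 (log2 -1.13, adjusted p = 0.0458) and without RK-701 replicate 1 (-1.17, adjusted p = 0.00441). Obox8 leaned the other way, by log2 0.60 (95% interval 0.11 to 1.09, adjusted p = 0.103). Without A366 replicate 2, Obox3-ps4 was not called (-1.01, adjusted p = 0.187).

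Each of the 3 co-treatments with TSA was accompanied by higher levels of the 3 zygotic members and the pseudogene. Obox8 had 499 and 598 CPM with RK-701, 504 and 488 with A366, and 581 and 383 with UNC0638. All 6 values lay above both LatA-SCNT control libraries, and they spanned 383 to 598 CPM beside 415 to 505 in IVF. The 3 comparisons share these control libraries. The folds were 7.25 (log2 change 2.86 ± 0.28, adjusted p = 1.56e-06), 6.56 (2.71 ± 0.28, adjusted p = 4.16e-06) and 6.38 (2.67 ± 0.28, adjusted p = 1.57e-06).

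Obox6 had 1356 and 1266 CPM with RK-701, 1268 and 1150.0 with A366, and 1440 and 1168 with UNC0638, again at the level of IVF. It was 2.84-, 2.62- and 2.82-fold higher than the control (adjusted p = 0.000431, 0.000912 and 0.000352). Obox3 separated the inhibitors. It had 151 and 144 CPM with RK-701, 164 and 139 with A366, and 369 and 280 with UNC0638, so that both UNC0638 libraries lay above the other 4. Against the control the folds were 3.76 (adjusted p = 0.000112), 3.87 (adjusted p = 8.91e-05) and 8.27 (adjusted p = 4.86e-07).

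Obox3-ps4 had 36.7 and 24.7 CPM, 44.5 and 32.9, and 70.6 and 70.8 in the same order, and was 2.83-, 3.56- and 6.51-fold higher (adjusted p = 0.00686, 0.00159 and 3.27e-05). Each co-treatment thus had 4 members higher, against 3.68%, 3.06% and 3.68% of all genes. With RK-701, Obox3-ps4 was not called without LatA-SCNT control replicate 2 (log2 1.18, adjusted p = 0.101) or RK-701 co-treatment replicate 1 (1.19, adjusted p = 0.0947). No maternally stored member was called. In the co-treatment with UNC0638, Obox2 (1.98-fold, adjusted p = 0.00603) and Obox5 (1.68-fold, adjusted p = 0.0265) passed the adjusted p but not the fold. Without LatA-SCNT control replicate 1, Obox1 (log2 1.16, adjusted p = 0.00751) and Obox2 (1.25, adjusted p = 0.00261) were called there, and without UNC0638 co-treatment replicate 1 Obox2 was (1.05, adjusted p = 0.0323).

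Compared with IVF, the co-treatments with RK-701 and A366 left 4 members lower and the co-treatment with UNC0638 left none. With RK-701, Obox3 was 2.24-fold lower (adjusted p = 0.00108), Obox5 3.36-fold (adjusted p = 5.59e-07), Obox1 2.51-fold (adjusted p = 0.000191) and Obox2 2.07-fold lower (adjusted p = 0.000466), against 5.95% of all genes. With A366 the same members were 2.18-, 2.89-, 2.43- and 2.69-fold lower, against 5.37%. Obox2 with RK-701 was not called without IVF replicate 3 (log2 -0.98, adjusted p = 0.00197) or co-treatment replicate 2 (-0.81, adjusted p = 0.0451), and Obox3 with A366 was not without co-treatment replicate 2 (-1.01, adjusted p = 0.0573).

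With UNC0638, 0 members were called by edgeR or DESeq2, against 9.84% of all genes called in either direction. Obox5 and Obox1 had an unadjusted p under 0.05 there, and Obox5, at 227 and 292 CPM, was 1.74-fold lower than IVF (adjusted p = 0.00419). The log2 difference of Obox3 from IVF was -0.03 (95% interval -0.50 to 0.45).

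Between co-treatments, Obox3 was higher with UNC0638 than with either other inhibitor. With UNC0638 it was 2.20-fold higher than with RK-701 (log2 change 1.14 ± 0.27, adjusted p = 0.0307), the 1 member called, against 0.671% of all genes. It was 2.14-fold higher than with A366 (1.10 ± 0.27, adjusted p = 0.0409), where Obox2 was also called (2.10-fold, adjusted p = 0.0153), 2 members against 0.733%. Leaving out any 1 of the compared UNC0638, RK-701 or A366 libraries took the Obox3 calls away, at log2 changes of 0.92 to 1.32 and 0.88 to 1.28, and that of Obox2 (0.99 to 1.15). Obox5 was 1.93-fold higher with UNC0638 than with RK-701 (adjusted p = 0.022), and was called at log2 1.21 (adjusted p = 0.0446) without RK-701 co-treatment replicate 1 and at 1.12 (adjusted p = 0.0398) without UNC0638 co-treatment replicate 1. Co-treatment with A366 had no member called against that with RK-701 by edgeR or DESeq2, and no other gene by edgeR (0%). At an unadjusted p under 0.05 there were 0 members and 998 genes, and the 95% interval of the log2 difference in Obox3 was -0.51 to 0.59.

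The share of TSA in the co-treatments was taken from the matching single inhibitor. Adding TSA to A366 raised the 3 zygotic members and the pseudogene: Obox8 was 3.16-fold, Obox6 2.51-fold, Obox3 2.38-fold and Obox3-ps4 2.64-fold higher (adjusted p = 0.00053, 0.00181, 0.0051 and 0.0136), 4 members against 3.10% of all genes. Adding TSA to RK-701 was followed by higher Obox8 (5.30-fold, adjusted p = 2.08e-07) and Obox6 (2.10-fold, adjusted p = 0.00114), but Obox3 was at 151 and 144 CPM beside 90.4 to 147 without TSA (log2 change 0.23, 95% interval -0.27 to 0.73). These were 2 members against 5.35% of all genes called higher. At the same time Obox1, at 64.9 and 53.4 CPM, was 2.15-fold lower (adjusted p = 0.00196) and Obox5, at 157 and 112 CPM, was 2.21-fold lower (adjusted p = 0.000186) than with RK-701 alone, 2 members against 4.91% called lower.

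Several of these calls depended on 1 library. Without A366 replicate 2, Obox3 (log2 1.19, adjusted p = 0.085) and Obox3-ps4 (1.14, adjusted p = 0.206) were not called for TSA added to A366, and without co-treatment replicate 1 likewise (1.12, adjusted p = 0.0669, and 1.17, adjusted p = 0.149). For TSA added to RK-701, Obox1 (-0.97, adjusted p = 0.0691) and Obox5 (-0.92, adjusted p = 0.0259) were not called without co-treatment replicate 2, nor Obox6 (0.91, adjusted p = 0.0128) without RK-701 replicate 1. Obox7 was called there without RK-701 replicate 2 (-1.01, adjusted p = 0.019).

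A test of the interaction asked whether TSA had another effect beside the inhibitor than alone. Obox5 was the 1 member called by edgeR for RK-701 (log2 -1.34 ± 0.29, adjusted p = 0.0151), against 0.752% of all genes in that direction. DESeq2 called Obox5 and also Obox8 (1.19, adjusted p = 0.0205). TSA alone changed Obox5 by log2 0.19 against the control, whereas on top of RK-701 it lowered it by 1.15. The edgeR call of Obox5 was lost with the compared libraries alone (-1.3, adjusted p = 0.103) and without co-treatment replicate 2 (-1.12). For Obox8 the interaction was 1.20 (95% interval 0.46 to 1.93, adjusted p = 0.0758), and it was called without LatA-SCNT control replicate 2 (1.37, adjusted p = 0.0363), TSA replicate 2 (1.68, adjusted p = 0.0284) or RK-701 replicate 2 (1.51, adjusted p = 0.0174). Without that control library Obox6 was called as well (1.18, adjusted p = 0.0385), and for Obox3 it was 0.05 (-0.71 to 0.80).

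For A366 no member was called, against 1.83% of all genes in either direction. Obox1, Obox3 and Obox6 had an unadjusted p under 0.05, and DESeq2 called Obox3 (1.09, adjusted p = 0.0497) and Obox6 (1.14, adjusted p = 0.0259). The edgeR values were 1.07 for Obox3 (95% interval 0.28 to 1.86) and 1.12 for Obox6 (0.40 to 1.84). Without TSA replicate 2, Obox3 (1.73, adjusted p = 0.0164), Obox6 (1.62, adjusted p = 0.0184) and Obox3-ps4 (1.77, adjusted p = 0.0491) were called, and without LatA-SCNT control replicate 2, Obox3 (1.35, adjusted p = 0.0264), Obox6 (1.44, adjusted p = 0.00721) and Obox1 (1.23, adjusted p = 0.0225) were.

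On the scale of summed TPM, the 7 coding members fell into different balances from group to group, given here as ranges with no test. Obox3, Obox6 and Obox8 together made up 74.5 to 82.4% of their TPM in IVF libraries and 70.7 to 75.3% in untreated SCNT libraries. The share was 89.6 to 91.0% after Kdm3a, 87.5 to 89.5% after Kdm4d, 90.3 to 92.8% in the co-treatments with RK-701 and A366, and 82.9 to 88.6% with UNC0638. In those groups the zygotic sum, at 3352 to 4181 TPM, was near the 3393 to 4077 TPM of IVF, while the maternally stored sum was 290.4 to 692 TPM against 871 to 1160.0. TSA alone had a share of 74.7 to 82.0% and A366 alone of 76.2 to 76.4%. RK-701 alone had the lowest mean share, 68.3%, but its libraries ran from 60.9 to 77.6% and overlapped the untreated SCNT libraries, with a zygotic sum of 1497 to 2405 TPM.

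**Figure D5:**
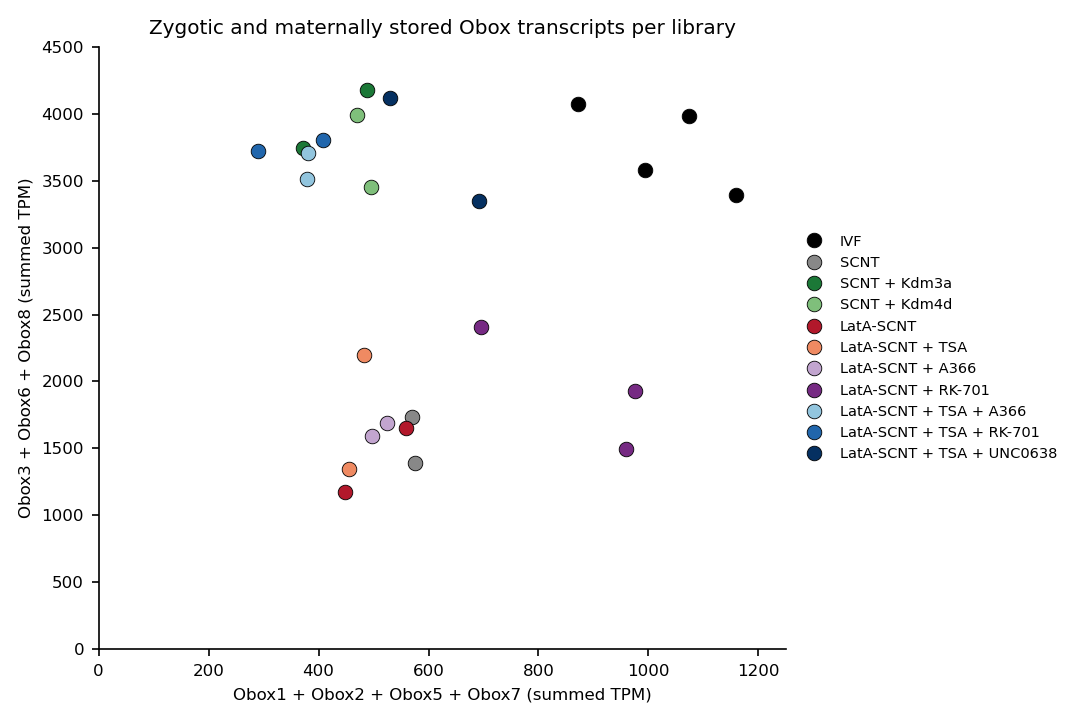
Summed TPM of the maternally stored members (x axis) and of the zygotic members (y axis) in each library, both from 0, with 1 point a library coloured by group. IVF lies at the upper right with 871 to 1160 TPM on the x axis, the injected and co-treated libraries at the upper left, the untreated and TSA or A366 libraries at the lower left, and RK-701 alone below IVF at 696 to 975 TPM.

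The order of the groups differed from member to member. For Obox3, SCNT-Kdm3a, IVF and the UNC0638 co-treatment overlapped at 324 to 343 CPM, SCNT-Kdm4d followed at 230 without overlap, and the RK-701 and A366 co-treatments and RK-701 alone overlapped at 126 to 152. A366 alone (63.8 CPM) was below these without overlap, and it overlapped TSA alone (44.3), which overlapped both controls (40.5 and 39.1). For Obox6 there were 2 levels, with 6 groups at 1166 to 1367 CPM and the remaining 5 at 462 to 626, and neighbours within each level overlapped. Obox8 had the same 6 groups at 455 to 597 CPM, then TSA (175) and A366 (157), then control SCNT, RK-701 and the LatA-SCNT control at 75.5 to 108. Obox7 covered 20.7 to 37.3 CPM with overlap between most neighbours.

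Among the other 47 Obox loci, 33 had a mean below 1 read and 14 were tested, of which 6 had a mean of at least 100 reads: Obox3-ps1, Obox3-ps2, Obox3-ps3, Obox3-ps5, Obox3-ps6 and Obox4-ps35. The 5 Obox3 pseudogenes among them followed Obox3. In control SCNT they were lower than IVF by log2 -2.27 (Obox3-ps3) to -3.89 (Obox3-ps6), all 5 called. They were higher than control SCNT by 2.47 (Obox3-ps1) to 3.34 (Obox3-ps6) after Kdm3a, and by 1.39 (Obox3-ps1) to 1.96 (Obox3-ps6) than LatA-SCNT controls after RK-701. Reads shared between these near copies were not counted, and which copy was transcribed is uncertain. Obox4-ps35 parted from them in control SCNT against IVF, where its log2 change was -0.09. It was called higher after Kdm4d (1.65) and in the UNC0638 co-treatment (2.02). After Kdm3a it was not called, but had 119 to 161 CPM against 36.4 to 61.6 in control SCNT. Of 6 tested Obox4 loci it was the only one above 10 reads on average.

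Of 12 tested genes for other factors linked to genome activation, 2 were lower (6.82% of all genes) and 0 higher in control SCNT than in IVF, with a median log2 change of -0.14. They were Gabpa (-2.09), an ETS-family activator, and Klf5 (-2.06), a factor of the early embryo that is named after its values were seen. After Kdm3a and Kdm4d, 3 and 4 of 12 were higher than control SCNT (2.38% and 2.11% of all genes) and 0 lower. Dppa2 (1.38 and 1.17) and Dppa4 (1.21 and 1.11), a pair of chromatin proteins that prime genes of the 2-cell stage, were among them. The co-treatments had 4 (RK-701), 3 (A366) and 3 (UNC0638) of 12 higher than LatA-SCNT controls, beside 3.68%, 3.06% and 3.68% of all genes. Smarca5, the most abundant of the list, had a log2 change of 0.32 in control SCNT and was not called. Duxf3 was below the count minimum and was not tested.

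Of 19 genes typical of the 2-cell stage, 8 were lower (6.82% of all genes) and 0 higher in control SCNT than in IVF, with a median log2 change of -1.26. Usp17lb (-1.99), a deubiquitinase gene, was lower, while Zfp352 (0.56), Tcstv3 (-0.13) and Tdpoz1 (-0.36) were not called. After Kdm3a 9 and after Kdm4d 7 of 19 were higher than control SCNT (2.38% and 2.11% of all genes), and 0 and 1 were lower, the latter Zfp352 (-1.04). The UNC0638 co-treatment had 18 of 19 higher than LatA-SCNT controls (3.68% of all genes). As co-treatment, RK-701 had 3 (3.68% of all genes) and A366 had 2 (3.06%). RK-701 alone had 3 (1.73% of all genes), and TSA or A366 alone had 0. Zfp352 was higher with the UNC0638 co-treatment (1.13) and was -0.54 and -0.69, not called, in the others. MERVL-int stood at 6161 to 7189 CPM in the UNC0638 co-treatment and at 3741 to 4909 in the co-treatments with RK-701 and A366, beside 2897 and 3775 in LatA-SCNT controls. Obox6 and Obox8 had values in or near the IVF range in the co-treatments, whose MERVL-int values all lay below those of IVF. The mean of Obox3 was 45.9% of its IVF mean with A366, 44.6% with RK-701 and 98.1% with UNC0638. Whether any member has a part in the MERVL-int levels was not tested.

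Of 8 tested homeobox genes outside the family, 1 was lower (6.82% of all genes) and 0 higher in control SCNT than in IVF. The lower one was Duxbl1 (log2 change -1.88), chosen after its values were seen. Crxos, a homeobox gene of the early embryo, was called higher after Kdm3a (log2 1.38), Kdm4d (1.10) and the co-treatments with RK-701 (1.46), A366 (1.09) and UNC0638 (1.20). Nobox (-1.14 in control SCNT against IVF), Lhx8 (-0.35) and Sebox (-0.16), factors of the oocyte, were not called there, and Sebox was lower than LatA-SCNT controls in the RK-701 co-treatment (-1.16).

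The genes whose group means lay closest to the mean profile of the zygotic members, over 11 group means of log2(CPM + 1) and 8157 genes with at least 10 CPM, were Med29 (Pearson r 0.9953), Iqcg (0.9879), Atf7ip2 (0.9873), Nhp2 (0.9832) and H3f3b (0.983). For the maternally stored members they were Gm13103 (0.9384), Nlrp9b (0.9382), Txndc16 (0.926), Myocos (0.9198) and Nlrp4e (0.9142). The points share the libraries of each group, so that these values are a description. Within the family, each zygotic member correlated with the mean of the other zygotic members at 0.8749 (Obox3), 0.9737 (Obox6) and 0.8971 (Obox8). Of the maternally stored members, Obox1, Obox2 and Obox5 did so at 0.8371 to 0.8901, and Obox7 at 0.5056.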

How the data were processed

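RNA-seq libraries (SMART-Seq HT, paired-end reads of 150 bases) had been made from pooled 2-cell embryos. Per the labels and the study's methods, the authors trimmed the reads (Trimmomatic), aligned them to mm10 (STAR, unique alignments) and counted them per gene and repeat copy with featureCounts 1.6.2, and the deposited values are raw read counts for 25 libraries. Unique alignment leaves out reads that near-identical Obox copies share. Total counts were 6662727 to 21188688 per library, and members had at least 85 reads in each.

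The 25794 autosomal genes averaging 1 read or more were tested in one fit over all libraries with edgeR 4.0.16 (quasi-likelihood, TMM factors, R 4.3.3), with Benjamini-Hochberg adjustment within each of 28 comparisons. A call needed an adjusted p under 0.05 and a fold above 2. The procedure was tested on simulated counts. TPM was computed from counts per exon length over autosomal genes. Nothing states that replicates came from separate embryo batches, so p-values measure the spread between these libraries. Alternatives were DESeq2 1.42.0, RLE factors, other count filters, sex chromosomes, a replicate block, the compared libraries alone, the other untreated control, and leaving out each library.

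The members and the gene lists (other Obox loci, genome activation factors, 2-cell genes, other homeobox genes, oocyte-stored genes, cumulus markers) were chosen with earlier results of these data known. Named were the 8 members, other Obox loci averaging 100 reads or more, the 5 genes of most like pattern per class, and up to 4 genes per list with the highest mean level, with exceptions stated.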

Additional observations from a re-analysis of the deposited data

Results flagged for a closer look

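Obox5 is the 1 member for which the main edgeR fit called a different effect of a treatment between backgrounds, by a test of the difference itself. DESeq2 also called the TSA by RK-701 interaction for Obox8 (1.19, adjusted p = 0.0205). It called the TSA by A366 interaction for Obox3 (1.09, adjusted p = 0.0497) and Obox6 (1.14, adjusted p = 0.0259). The effect of TSA on Obox5 was lower in the presence of RK-701 than in its absence by -1.34 on the log2 scale (edgeR interaction term, adjusted p = 0.0151). In LatA-SCNT controls Obox5 had 178 and 131 CPM, with TSA 168 and 186, with RK-701 330.2, 232 and 330.3, and with both 157 and 112. The edgeR call was lost with the compared libraries alone (-1.3, adjusted p = 0.103) and without RK-701 co-treatment replicate 2 (-1.12). In the 4 IVF libraries no member had a library that stood apart from the others by Dixon's criterion.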

How the results depend on the processing

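Of 224 member values, 80 were called, and no called value changed sign under any alternative. RLE factors kept 79 of these calls, DESeq2 79, either other filter and the sex chromosomes 80, and the compared libraries alone 76. For TSA alone against its control, the count of members called went from 1 to 0 with the replicate block, the compared libraries alone or the other untreated control. For A366 alone it went from 0 to 1 without a count filter and with DESeq2. UNC0638 against RK-701 as co-treatment had 2 in place of 1 without a filter, with the compared libraries alone and with DESeq2. The TSA by RK-701 interaction had 2 in place of 1 without a filter and with DESeq2, and 0 with the compared libraries alone, and the TSA by A366 interaction had 2 in place of 0 without a filter and with DESeq2. The cause of these changes was not tested.

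Leaving out 1 library at a time gave 4 to 6 members for control SCNT and 1 to 3 for SCNT-Kdm3a against IVF, 2 to 4 for either injection against control SCNT, 0 to 1 for TSA and 1 to 4 for RK-701 against LatA-SCNT controls, 1 to 3 for A366 against RK-701, 0 to 1 for UNC0638 against RK-701 and 0 to 0 for UNC0638 against A366 as co-treatment, 2 to 5 for TSA added to RK-701, 2 to 4 for TSA added to A366, and 0 to 3 for either interaction.

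The replicate numbers share no stated batch, and same-numbered libraries showed little tendency to deviate together (111 pairs, r from -0.322 to 0.165, median -0.00423, 4 over 0.1). Between groups of 2 libraries both replicate numbers give the same r, so these values are not independent. The lowest r was between LatA-SCNT controls and TSA alone. The numbers were not used to pair the libraries in the main fit. With the replicate number as a block, 72 of the 80 calls remained, and UNC0638 had 0 members against RK-701 and 1 against A366 as co-treatment.

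With 2 libraries in most groups, changes close to a fold of 2 depended on single libraries. Obox7, at 163 to 834 reads, had the lowest range of reads of the coding members. Its log2 standard error against IVF was above that of Obox3 after Kdm3a (0.25 and 0.23) and below it in control SCNT (0.26 and 0.27).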
